A study of Mus musculus with 32 samples.

Results

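The comparison described here set 4 RNA-seq libraries of CD206+ macrophages from the fat of wild-type mice on a high-fat diet (HFD) against 4 libraries of the same sort from wild-type mice on a standard diet (SD). These 8 of the 32 libraries of the series were chosen by their labels alone, and no measured value entered the choice. All mice were C57BL/6J, the HFD lasted 12 weeks, and the macrophages were sorted by flow cytometry from epididymal white fat as cells with high CD206 and low CD11c surface protein. Wild type (WT) means the control mice of a line in which A20 (Tnfaip3), an inhibitor of NF-kB signalling, is missing from myeloid cells (KO); neither the Cre driver nor the age of the mice is given in the sources used here. Further libraries, 4 per group, served only as contrasts: CD11c+ (high CD11c, low CD206) macrophages of WT mice on HFD and on SD, and CD206+ macrophages of KO mice on HFD and on SD. The CD11c+ KO libraries entered only the shared estimate of spread. No label says that each library is a separate mouse, so the p-values reflect only how these libraries vary, which may be partly technical variation.

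CD206, the mannose receptor encoded by Mrc1, marks the resident macrophages of lean fat, which take up endocytic cargo through scavenger and lectin receptors and express genes that interleukin 4 induces, such as Retnla. In expanding fat, macrophages that engulf lipid and dying adipocytes turn on a set of genes known as the lipid-associated macrophage programme, which includes the lipid receptor Trem2, lysosomal proteases and enzymes that store or export lipid. CD11c, encoded by Itgax, is the integrin used to sort the macrophages that accumulate in obese fat.

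The 8 libraries held 17619638 to 22008174 counts assigned to genes, and 15045 to 15656 genes had at least 1 count. Levels are given as CPM, counts scaled to the same normalised gene total in every library, and differences as log2 fold changes of HFD over SD with their standard error. In a principal component analysis of the 8 libraries, the component with 55.6% of the variance had the 4 HFD libraries between -52.3 and -28.5 and the 4 SD libraries between 40.5 and 44.4. HFD replicates 1 and 2 lay farthest apart on the component with 13.5% of the variance, at 30.3 and -36.2, and SD replicate 4 lay at 28.6. The share of counted reads that fell outside genes was 7.42 to 8.16% in HFD libraries and 9.82 to 11.1% in SD libraries, so this technical measure moved with the diet; its part in the results was not tested. In a principal component analysis of all 32 libraries, the third component (12% of the variance) had the 8 WT SD libraries of both sorts between -58.95 and -38.7 and each of the other 24 libraries above 0, so the SD libraries used here stood apart together with the CD11c+ WT SD libraries.

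The genes of the sort and of the macrophage lineage were expressed in all 8 libraries. Mrc1, which encodes the sorted CD206, had 1532, 1290.4, 1435 and 1575 CPM in the HFD libraries, against 1690.4, 1655, 2078 and 2148 CPM in the SD libraries. These levels did not overlap, and the difference was -0.38 ± 0.11 (adjusted p = 0.0137). Because the cells were sorted by its product, this difference is not read as a finding. Its call was lost without HFD replicate 2 or SD replicate 3 or 4 (adjusted p = 0.0581 to 0.0746). Itgax, whose product CD11c was sorted against, had 20.7, 50.3, 29.5 and 37.03 CPM in the HFD libraries, against 6.07, 3.29, 3.90 and 1.25 CPM in the SD libraries. Its difference of 3.23 ± 0.34 (adjusted p = 3.50e-08) is likewise not read as a finding. The part of the gate in either difference was not tested. Of the 10 genes that define macrophages, Adgre1 (F4/80) rose by 0.68 on the log2 scale, to 1641 ± 132 CPM in HFD libraries, against 1021 ± 30.1 CPM in SD libraries (mean ± SD, n = 4 each), and Cd68, a lysosomal glycoprotein of macrophages, rose by 0.5. The lineage factor Spi1 was called at 0.26 ± 0.08 and lost the call without HFD replicate 1 or with upper quartile factors (adjusted p = 0.0627 to 0.0650). The growth factor receptor Csf1r stood at 3567 to 4033 CPM in HFD libraries and 3950.1 to 5281 CPM in SD libraries, a difference of -0.2 ± 0.14 (adjusted p = 0.303). The lysozyme gene Lyz2 stood at 10822 to 13406 CPM in HFD libraries and 10473 to 15306 CPM in SD libraries, and its difference of -0.063 ± 0.13 (adjusted p = 0.758) missed the threshold as well. A20 itself (Tnfaip3) had 894, 691, 715 and 804 CPM in the HFD libraries, against 662, 668, 738 and 486 CPM in the SD libraries (difference 0.28 ± 0.19, adjusted p = 0.294). In CD206+ KO cells it had 167 to 285 CPM on HFD and 214 to 314 CPM on SD, below every WT library.

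Of 13453 genes with enough counts to test, 3728 (27.7%) passed an adjusted p of 0.05 in edgeR's quasi-likelihood test with Benjamini-Hochberg adjustment, which is the test behind every adjusted p below. On HFD 1916 genes (14.2%) were higher and 1812 (13.5%) were lower; with upper quartile factors in place of TMM the split was 1453 higher and 2280 lower, and the median log2 fold change of all genes was -0.093 in place of -0.021. Of the called genes, 481 (3.58% of those tested) had a log2 fold change over 1 and 739 (5.49%) had one under -1. For 4227 genes (31.4%) the 4 HFD and the 4 SD libraries did not overlap. These shares are the background for the gene lists below, each of which is given as members called higher or lower of those tested, beside its median log2 fold change. The lists share some genes, such as Lipa, and a shared gene counts in each of its lists. In bulk libraries, fewer cells of a type and less RNA per cell cannot be told apart.

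**Figure D1:**
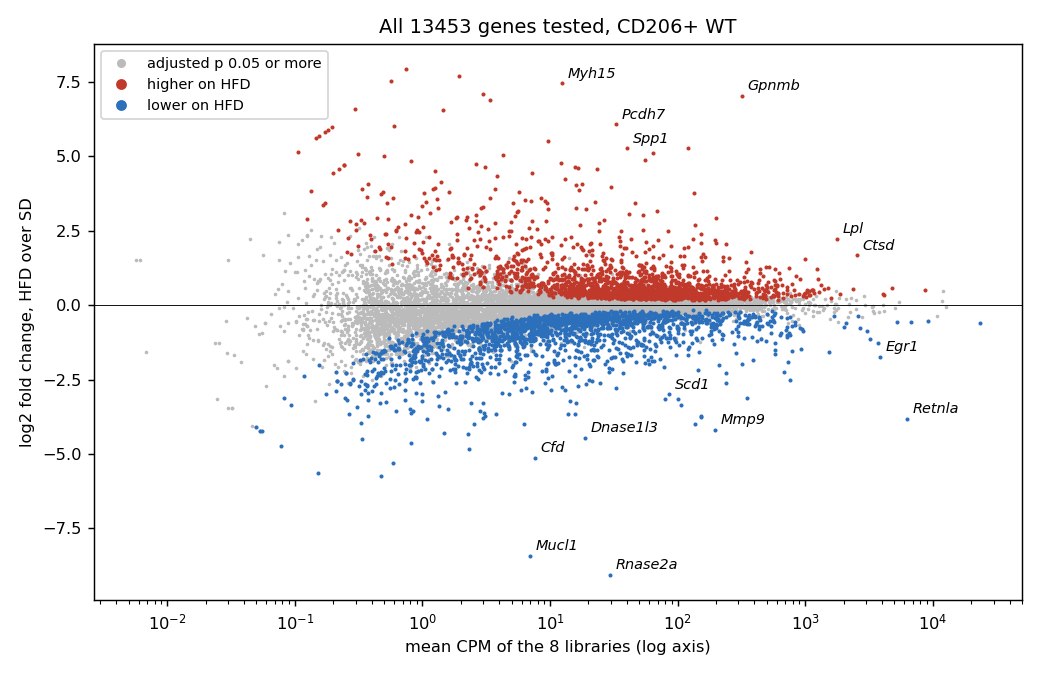
Log2 fold change of HFD over SD against the mean CPM of the 8 CD206+ WT libraries (log axis) for all 13453 genes tested; red points were called higher on HFD, blue points lower, and grey points missed the threshold of 0.05. Labelled genes are described in the text, with Gpnmb at 7.05 near the top and Retnla at -3.82 among the genes with the most counts.

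The lipid-associated macrophage genes rose almost as a whole. Of 30 members tested, 26 (86.7%) rose and none fell, with a median of 1.23. The list holds Itgax, the gene the cells were sorted against, and it is 1 of the 26. Gpnmb (chr6:49036518-49058182, GRCm38), a membrane glycoprotein of lipid-laden macrophages, had 347, 932, 536 and 739 CPM in the HFD libraries, against 6.27, 3.84, 4.05 and 5.18 CPM in the SD libraries. Every HFD library was more than an order of magnitude above every SD library, and the difference was 7.05 ± 0.68 (adjusted p = 7.65e-09). Spp1, which encodes the secreted matrix protein osteopontin, had 99.1, 55.5, 62.4 and 96.3 CPM in the HFD libraries, against 1.87, 2.55, 1.09 and 2.56 CPM in the SD libraries. The groups did not overlap, and the log2 fold change was 5.28 ± 0.59 (adjusted p = 7.79e-08). Ctsk, the collagen-degrading protease cathepsin K, had 81.7, 129, 84.7 and 134 CPM in the HFD libraries, against 4.45, 2.96, 2.52 and 4.75 CPM in the SD libraries. All HFD libraries lay above all SD libraries, a difference of 4.87 ± 0.55 (adjusted p = 9.56e-08). The macrophage elastase Mmp12 had 88.4, 340, 216 and 305 CPM in the HFD libraries, against 11.1, 4.30, 6.66 and 2.35 CPM in the SD libraries, with HFD replicate 1 lowest among the HFD libraries and yet above all SD libraries (difference 5.27 ± 0.62, adjusted p = 1.73e-07).

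The receptors and surface proteins of the programme followed, with 6 of 8 higher, Itgax included. Trem2, the receptor that senses lipids, had 349, 329, 304 and 319 CPM in the HFD libraries, against 79.8, 70.4, 66.3 and 85.98 CPM in the SD libraries, a difference of 2.1 ± 0.24 (adjusted p = 1.23e-07), and the tetraspanin Cd9 rose by 2.93 ± 0.26; both were named after their values were seen. All 8 proteases and lysosomal members rose, among them Atp6v0d2, a subunit of the proton pump, at 249 ± 47.8 CPM in HFD libraries, against 18.4 ± 3.71 CPM in SD libraries. The lectin gene Lgals3 (galectin 3) rose to 1492 ± 215 CPM in HFD libraries, against 508 ± 67.4 CPM in SD libraries. The 4 members that missed the threshold were Apoe (0.48 ± 0.19), Cd36 (0.3 ± 0.19), Fabp4 (-0.41 ± 0.32) and Olr1 (-0.33 ± 0.4), which encode an apolipoprotein, a fatty acid receptor, a fatty acid carrier and a receptor for oxidised lipoproteins.

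**Figure D2:**
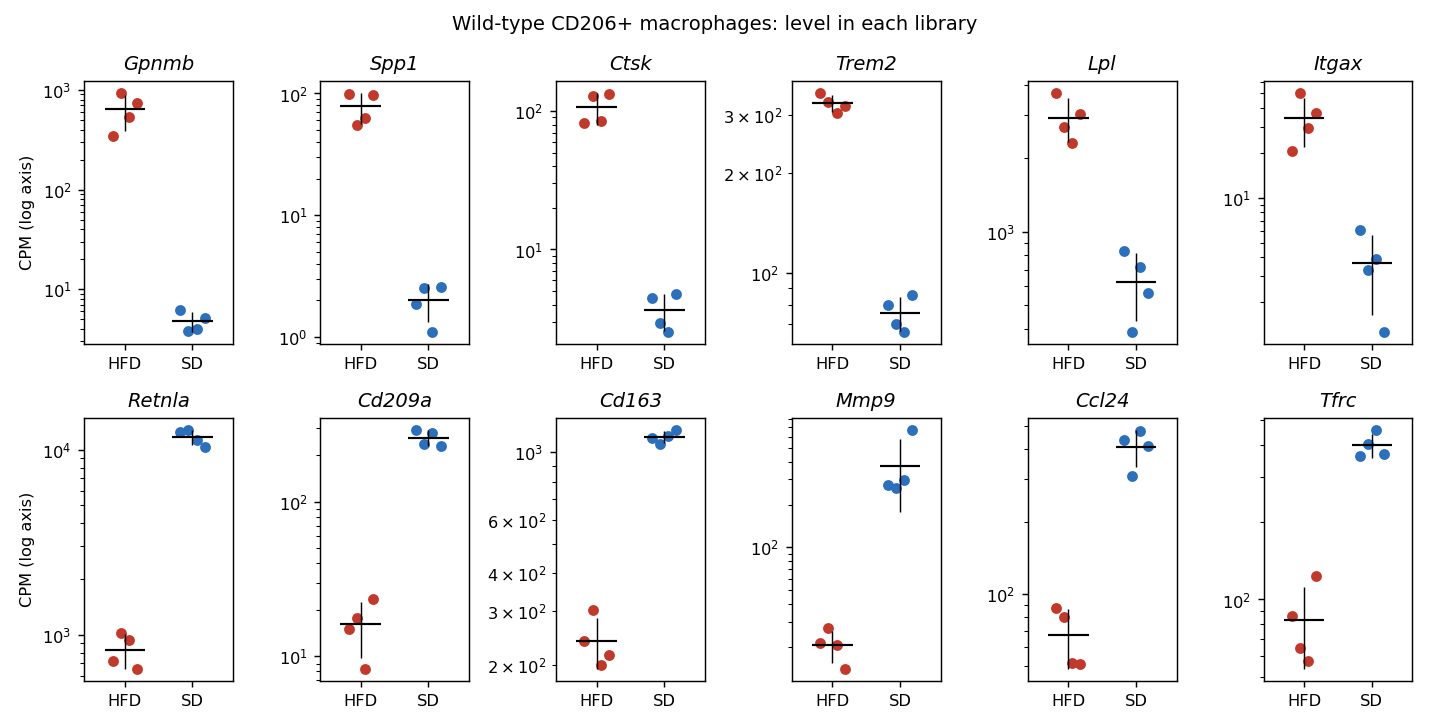
CPM (log axis) of 12 genes in each of the 4 HFD libraries (red) and the 4 SD libraries (blue) of CD206+ WT macrophages; black bars are the mean and its SD. Gpnmb, Spp1, Ctsk, Trem2, Lpl and Itgax stood higher in all HFD libraries, and Retnla, Cd209a, Cd163, Mmp9, Ccl24 and Tfrc lower, with no overlap for any of the 12.

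Genes that bring lipid into the cell and store it moved up in part. Lpl, the lipase that frees fatty acids from lipoproteins, had 3701, 2680.1, 2307 and 3029.8 CPM in the HFD libraries, against 832, 388, 718 and 561 CPM in the SD libraries; the groups did not overlap, and the difference was 2.23 ± 0.24 (adjusted p = 6.78e-08). Among the fatty acid uptake and scavenger receptor genes, 8 of 22 rose and none fell (median 0.37). These included the fatty acid carrier Fabp5 (1.68 ± 0.24), the lipoprotein receptor Lrp1 (0.99 ± 0.22), the fatty acid transporter Slc27a1 (0.83 ± 0.2) and the HDL receptor Scarb1 (0.68 ± 0.14). Fabp3, another carrier, rose by 1.28 ± 0.34, at 1.47 to 2.12 CPM in HFD libraries and 0.428 to 0.879 CPM in SD libraries. Of the lipid droplet genes, 9 of 19 rose and 2 fell (median 0.27). Plin2, the coat protein of lipid droplets, had 1591, 1687, 1782 and 1807 CPM in the HFD libraries, against 566, 950.1, 620.2 and 822 CPM in the SD libraries. Every HFD value was higher than every SD value, with a difference of 1.21 ± 0.21 (adjusted p = 7.26e-05). Both Soat1, which esterifies cholesterol (1.27 ± 0.11), and Nceh1, which hydrolyses cholesterol esters (1.62 ± 0.12), rose, as did Hilpda, an inhibitor of lipolysis on the droplet (1.22 ± 0.19). The 2 that fell were Dgat2, which makes triglyceride (-1.35 ± 0.28), and the hormone-sensitive lipase gene Lipe (-0.46 ± 0.11). Lipe missed the threshold with a replicate block in the 8 libraries alone (adjusted p = 0.0518). The summed CPM of adipocyte markers was lower on HFD too, and the part of adipocyte RNA in these 2 changes was not tested.

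For cholesterol export and its control by the liver X receptor (LXR), 6 of 19 genes rose and none fell (median 0.24). The sterol exporter Abcg1 had 98.1, 101, 119 and 109.8 CPM in the HFD libraries, against 41.3, 35.7, 35.03 and 28.8 CPM in the SD libraries. There was no overlap, and the difference was 1.6 ± 0.18 (adjusted p = 1.10e-07). Nr1h3, which encodes LXR alpha itself, rose by 1.52 ± 0.19. So did genes that move sterol out of lysosomes and between membranes, namely Lipa (lysosomal acid lipase, 1.24 ± 0.14), Gramd1b (1.24 ± 0.16), Npc1 (0.53 ± 0.15) and Stard3 (0.46 ± 0.11). Cholesterol synthesis showed 4 of 26 genes higher and 1 lower, a share of 15.4% higher that is close to the background of 14.2% (median 0.17); the count of higher genes was 2 without HFD replicate 4, SD replicate 2 or SD replicate 3, and 7 without SD replicate 1. Msmo1 rose by 0.69 ± 0.17, while the calls of Sqle (0.9 ± 0.3, lost without HFD replicate 4 or SD replicate 2 or 3, adjusted p = 0.0593 to 0.0871), Fdps (0.77 ± 0.25, lost without HFD replicate 3 or SD replicate 2 or 3, adjusted p = 0.0520 to 0.0675) and Hmgcs1 (0.65 ± 0.19, lost without HFD replicate 4, adjusted p = 0.0593) depended on the libraries included. Insig1, the brake on that pathway, had a difference of -0.31 ± 0.11 (adjusted p = 0.0383) that missed the threshold when any of the 8 libraries was left out (adjusted p = 0.0514 to 0.126).

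Fatty acid synthesis had 3 of 16 genes lower and 1 higher, with a median of -0.17. The share of 18.8% lower is not far from the background of 13.5%. Scd1, the desaturase that makes monounsaturated fatty acids, had 20.5, 24.3, 15.8 and 15.8 CPM in the HFD libraries, against 149, 129, 141 and 191 CPM in the SD libraries, without overlap (difference -3.0 ± 0.44, adjusted p = 7.33e-06). The lipogenic regulator Thrsp (-2.49 ± 0.52, adjusted p = 5.78e-04) and the acetyl-CoA synthetase Acss2 (-1.03 ± 0.17) fell as well, while the elongase Elovl1 rose by 0.44 ± 0.1. Adipocytes express Scd1 and Thrsp strongly, and the summed CPM of the 16 listed adipocyte markers was 70.6 to 135 in HFD libraries and 274 to 367 in SD libraries; the part of adipocyte RNA in these results was not tested. Of 26 fatty acid oxidation genes, 4 rose and none fell, near the background (15.4% against 14.2%) and with a median of 0.065, and 2 rose with upper quartile factors. The 2 subunits of the mitochondrial trifunctional protein, Hadha (0.61 ± 0.077) and Hadhb (0.64 ± 0.074), were the firmest. The uncoupling protein gene Ucp2 (0.36 ± 0.12) lost its call without HFD replicate 3 or SD replicate 1 or 3 or with upper quartile factors (adjusted p = 0.0716 to 0.0962), and the dehydrogenase gene Acadl (0.24 ± 0.073) lost it without HFD replicate 4 or with upper quartile factors (adjusted p = 0.0706 to 0.112).

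Lysosomal genes rose broadly. Of 58 tested, 31 (53.4%) rose and 2 fell, with a median of 0.3. The proton pump that acidifies the lysosome stood out by share, with 10 of 13 subunit genes higher, against 17 of 36 hydrolases and 4 of 9 membrane proteins; these shares were not tested against each other. Ctsd, the aspartic protease cathepsin D, had 3410.3, 3689, 3966 and 4492 CPM in the HFD libraries, against 1114, 1337, 904 and 1481 CPM in the SD libraries, with no overlap (difference 1.69 ± 0.19, adjusted p = 6.78e-08). Ctsl (cathepsin L) had 565, 888, 621 and 845 CPM in the HFD libraries, against 289, 331, 255 and 334 CPM in the SD libraries. Its lowest HFD library still lay above its highest SD library, with a difference of 1.27 ± 0.19 (adjusted p = 6.13e-06). Ctsb (cathepsin B) rose by 0.5 ± 0.11, to 10208 ± 572 CPM in HFD libraries, against 7199 ± 935 CPM in SD libraries. The phosphatase gene Acp5 rose by 1.28 ± 0.2. Psap, the precursor of the saposins, was called at 0.59 ± 0.22 and lost the call without HFD replicate 3 or 4 or SD replicate 1, 2 or 3 or with a minimum count of 50 or upper quartile factors (adjusted p = 0.0521 to 0.128). The 2 that fell were the cysteine proteases Ctsh (-0.68 ± 0.12) and Ctsc (-0.38 ± 0.095).

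The palindrome TCACGTGA gives the letters of the element bound by the factor TFEB and its relatives. In RefSeq promoter windows of 250 bases before to 50 after the start (GRCm38.p6), searched on both strands, it occurred in 6 of the 46 lysosomal genes that have a window, against 1.12% of all 27025 genes with a window. These 6 were Ctsa, Ctsd, Gla, Mcoln1, Atp6v0d1 and Atp6v1a; 5 of them were higher on HFD and Mcoln1 was not (-0.063 ± 0.098), against 18 of the 40 without it. The call of Ctsa, a carboxypeptidase (0.29 ± 0.11), was lost without HFD replicate 1, 3 or 4 or SD replicate 1, 2 or 3 or with a minimum count of 50 or upper quartile factors (adjusted p = 0.0517 to 0.131), and that of the pump subunit Atp6v0d1 (0.23 ± 0.061) with upper quartile factors (adjusted p = 0.0527). Its core CACGTG, which every TCACGTGA contains, was in 14 of the 46 and in 8.09% of all genes with a window, and 7 of the 14 were higher, against 16 of the 32 without it. The 3 stretches below are those of a protease, the proton pump subunit Atp6v1a (1.14 ± 0.13) and the glycosidase Gla (0.72 ± 0.17), each written 5′ to 3′ on the gene's strand with the palindrome in capitals; a match is a description of the letters only.
Ctsd (chr7:142387888-142387957, minus strand): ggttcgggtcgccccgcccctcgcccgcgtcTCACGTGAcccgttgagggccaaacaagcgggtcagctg
Atp6v1a (chr16:44139353-44139422, minus strand): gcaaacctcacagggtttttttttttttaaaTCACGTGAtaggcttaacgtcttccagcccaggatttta
Gla (chrX:134601162-134601231, minus strand): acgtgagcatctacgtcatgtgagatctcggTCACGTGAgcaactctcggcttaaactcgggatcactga

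**Figure D3:**
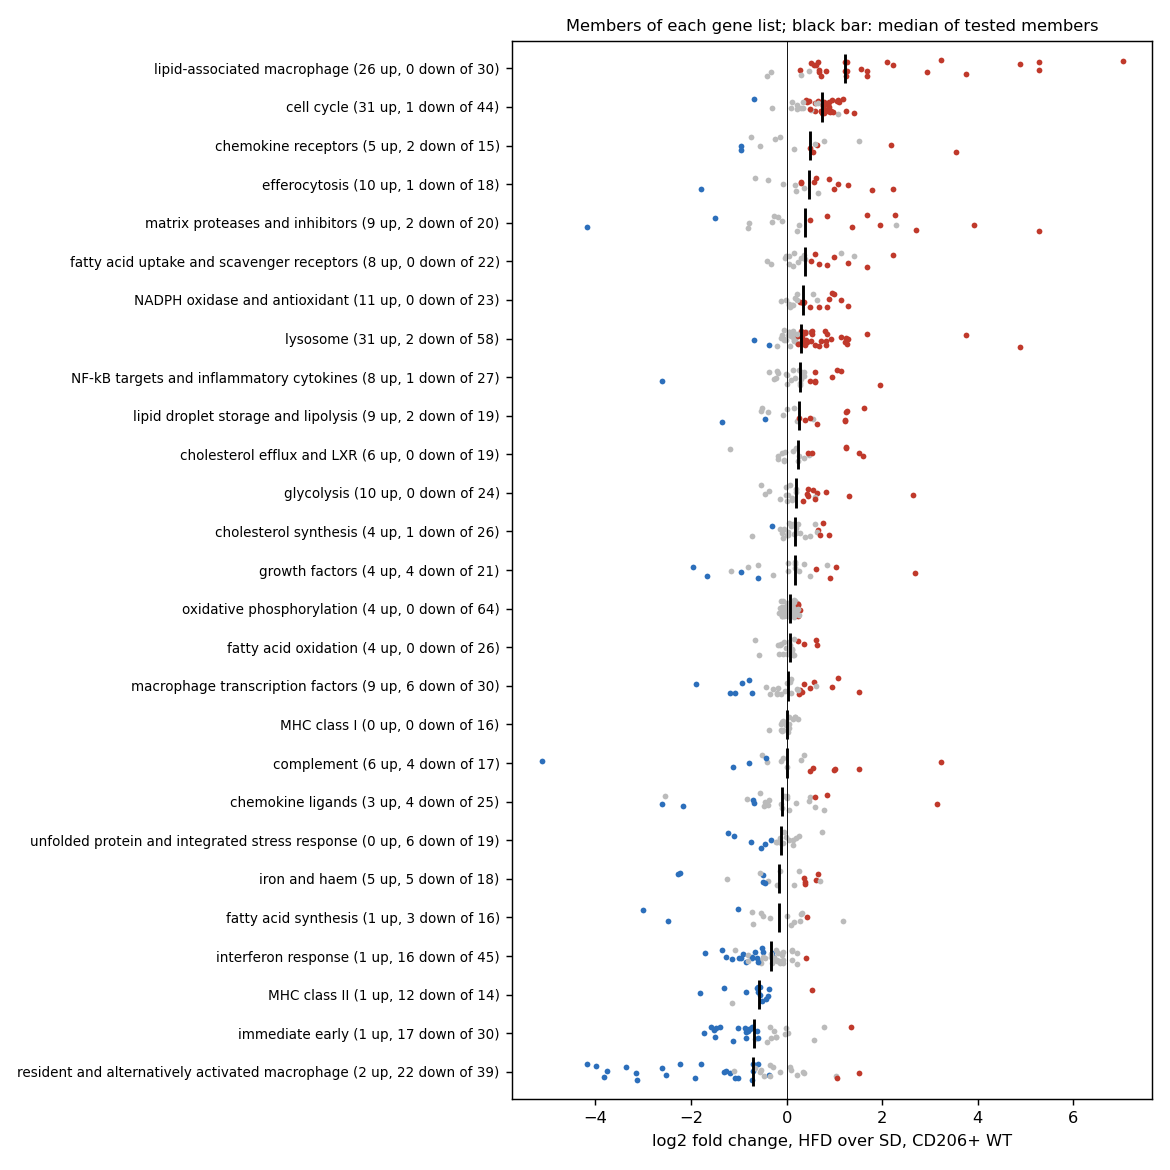
Log2 fold change of HFD over SD for each tested member of the 27 pathway lists in CD206+ WT macrophages, with lists ordered by their median (black bar); red members were called higher, blue lower, grey neither. The lipid-associated list lies at the top with 26 of 30 members higher, and the resident and immediate early lists lie at the bottom with 22 of 39 and 17 of 30 lower.

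Genes of resident and alternatively activated macrophages fell. Of 39 tested, 22 (56.4%) fell and 2 rose, with a median of -0.7. Retnla (chr16:48842609-48844461), a secreted protein induced by interleukin 4, had 716, 1022, 933 and 653 CPM in the HFD libraries, against 12486, 12790, 11262 and 10371 CPM in the SD libraries. The groups were far apart, and the difference was -3.82 ± 0.46 (adjusted p = 2.30e-07). Cd163, the scavenger receptor for haemoglobin, had 239.6, 302, 199 and 216 CPM in the HFD libraries, against 1109.6, 1062, 1134 and 1185 CPM in the SD libraries. No HFD library was as high as any SD library, and the difference came to -2.23 ± 0.33 (adjusted p = 6.80e-06). F13a1, the transglutaminase factor XIII A, fell by 1.28 ± 0.21 (adjusted p = 4.39e-05), to 2160.4 ± 85.8 CPM in HFD libraries, against 5239 ± 805 CPM in SD libraries. The chemokine gene Ccl24 (eotaxin 2) had 87.5, 80.6, 51.9 and 51.2 CPM in the HFD libraries, against 439.9, 309, 479.5 and 415 CPM in the SD libraries. Both groups were apart, with a log2 fold change of -2.6 ± 0.31 (adjusted p = 2.11e-07).

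The resident receptors made up most of this, with 14 of 18 lower. The C-type lectin genes of the Cd209 cluster, relatives of human DC-SIGN, lie side by side on chromosome 8, with Cd209a at chr8:3743395-3748984. Cd209a had 15.1, 17.6, 8.30 and 23.6 CPM in the HFD libraries, against 291, 237, 276 and 228 CPM in the SD libraries. HFD and SD libraries stood clear of each other, with a difference of -4.0 ± 0.52 (adjusted p = 1.10e-06). Its neighbours fell too, with differences of -3.75 ± 0.49 for Cd209d, -3.67 ± 0.52 for Cd209e, -3.35 ± 0.42 for Cd209g and -3.15 ± 0.44 for Cd209b. These paralogs are similar in sequence, so the split of reads between them is uncertain. Dendritic cells also express Cd209a. The summed CPM of the 18 dendritic cell markers, which include it, was 148 to 164 in HFD libraries and 496 to 564 in SD libraries. Cd209a itself made up most of the difference in that sum. The part of dendritic cells in the result was not tested. Of genes named after their values were seen, the lectin Mgl2 (-2.52 ± 0.29) and Cd209f (-3.13 ± 0.48) fell, while Lyve1, the hyaluronan receptor of perivascular macrophages (-1.31 ± 0.44), lost its call without HFD replicate 1 or 4 or SD replicate 3 or 4 or with DESeq2 (adjusted p = 0.0506 to 0.0868). The 2 members that rose were Vsig4, a complement receptor (1.51 ± 0.38), and the cytokine gene Il10 (1.06 ± 0.26). Arg1, commonly used as a marker of alternative activation, stood at 3.51 to 9.04 CPM in HFD libraries and 0.666 to 10.4 CPM in SD libraries and missed the threshold (0.34 ± 0.64). Chil3, another such marker, stood at 2.47 to 7.46 CPM in HFD libraries and 0.666 to 3.87 CPM in SD libraries and missed it too (1.04 ± 0.91).

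Mmp9, the gelatinase listed both here and among the matrix proteases, had 21.1, 26.9, 20.5 and 13.98 CPM in the HFD libraries, against 273, 261, 297 and 671 CPM in the SD libraries. SD replicate 4 stood well above the other SD libraries, and all 4 SD libraries stood above all HFD libraries (difference -4.18 ± 0.4, adjusted p = 7.65e-09). Other matrix proteases went the opposite way. Of 20 genes, 9 rose and 2 fell, the other being the collagenase Mmp13 (-1.49 ± 0.43), and the median was 0.38. Adam8, a metalloprotease of myeloid cells, had 220.3, 258, 182 and 293 CPM in the HFD libraries, against 54.3, 31.6, 28.5 and 32.5 CPM in the SD libraries. The groups did not overlap, and the log2 fold change was 2.7 ± 0.24 (adjusted p = 2.43e-09). The inhibitor Timp1 rose by 2.27 ± 0.37 and the gelatinase Mmp2 by 1.96 ± 0.35. Fibroblasts express both, and the 19 stromal markers summed to 1380 to 3940 CPM in HFD libraries and 1060 to 1940 CPM in SD libraries; their part was not tested. Mmp27 was near the detection limit, at 0.593 to 0.761 CPM in HFD libraries and 0 to 0.0952 CPM in SD libraries.

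Genes of antigen presentation by MHC class II were lower. Of 14 genes, 12 (85.7%) fell, with a median of -0.58, and Ctss, the protease that trims the invariant chain, rose by 0.53 ± 0.13. Cd74, the invariant chain, had 19008, 17165, 23008 and 15881 CPM in the HFD libraries, against 33488, 28296, 24850 and 26612 CPM in the SD libraries. All HFD libraries lay below all SD libraries, a difference of -0.59 ± 0.15 (adjusted p = 0.00289). The class II chains H2-Aa and H2-Eb1 fell by similar amounts, with differences of -0.56 ± 0.13 and -0.55 ± 0.13. H2-Ab1 fell by 0.53 ± 0.13, although HFD replicate 3 at 9405 CPM stood above SD replicate 4 at 9206 CPM. The peptide-loading genes H2-DMa (-0.62 ± 0.16) and H2-DMb2 (-1.81 ± 0.33), the modulator H2-Ob (-0.85 ± 0.22) and the co-stimulators Cd80 (-1.3 ± 0.17) and Cd86 (-0.59 ± 0.12) fell too. H2-Oa, the one member that neither rose nor fell, was low, at 0.0866 to 0.494 CPM in HFD libraries and 0.109 to 0.957 CPM in SD libraries. Of the 16 MHC class I genes, none passed the threshold in edgeR, 1 at an unadjusted p under 0.05 and 0 by DESeq2 (median 0.012). The smallest p belonged to the immunoproteasome gene Psmb9 (-0.36 ± 0.15, adjusted p = 0.0610). It was called lower with upper quartile factors (adjusted p = 0.019), a minimum count of 50 (0.0398) or library totals alone (0.0419). The same held with these 8 libraries fitted alone (0.0446) or the 16 CD206+ libraries alone (0.0474). It was also called lower without HFD replicate 3 (0.0239) or SD replicate 3 (0.0476).

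Interferon-response genes were lower in part. Of 45, 16 (35.6%) fell, the median was -0.34, and Trim25 was the one called higher (0.41 ± 0.15), a call lost without HFD replicate 3 or 4 or SD replicate 1, 2 or 3 or with a minimum count of 50 or upper quartile factors (adjusted p = 0.0617 to 0.123). By role, 9 of 24 antiviral effectors, 4 of 10 GTPases and 3 of 11 sensors and factors fell. Gbp7, a guanylate-binding GTPase, had 25.1, 24.8, 37.99 and 30.3 CPM in the HFD libraries, against 71.7, 86.2, 70.4 and 71.6 CPM in the SD libraries. All HFD libraries lay below all SD libraries, a difference of -1.34 ± 0.19 (adjusted p = 4.91e-06). Gbp3 fell by 1.28 ± 0.25 and the antiviral genes Mx2 (-1.72 ± 0.3), Mx1 (-1.15 ± 0.3) and Oas2 (-0.97 ± 0.25) also fell. Iigp1, another GTPase, was called at -1.0 ± 0.37 and lost the call without HFD replicate 1, 2 or 4 or SD replicate 1, 2 or 4 or with DESeq2 or no filter on low counts (adjusted p = 0.0506 to 0.154).

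In the promoter windows, the letters GAAA, any 2 bases and GAAA, which form the core of the element bound by interferon regulatory factors, occurred on either strand in 22 of the 35 interferon-response genes with a window (62.9%), against 3.99% of all genes with a window; 8 of the 22 were lower on HFD, against 2 of the 13 without it. CTGATTGG, a form of the inverted CCAAT box of class II promoters, occurred in 3 of the 7 class II molecules with a window and in 4.7% of all genes with a window; 2 of these 3 fell, against 4 of the 4 without it. The stretches below show these letters in capitals in the promoters of 2 GTPases and 2 class II chains, 5′ to 3′ on the gene's strand. In Gbp3 and Gbp7 the match reads on the opposite strand, so that it appears as TTTC, 2 bases and TTTC, and Gbp3 has 2 overlapping matches. A match describes the letters only, and its relation to the diet changes was not tested.
Gbp7 (chr3:142530253-142530322, plus strand): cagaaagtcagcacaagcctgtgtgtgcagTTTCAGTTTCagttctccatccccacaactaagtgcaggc
Gbp3 (chr3:142559974-142560043, plus strand): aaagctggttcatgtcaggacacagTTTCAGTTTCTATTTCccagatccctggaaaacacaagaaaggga
H2-Aa (chr17:34287836-34287905, minus strand): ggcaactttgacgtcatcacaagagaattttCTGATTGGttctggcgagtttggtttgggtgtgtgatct
H2-Eb1 (chr17:34305774-34305843, plus strand): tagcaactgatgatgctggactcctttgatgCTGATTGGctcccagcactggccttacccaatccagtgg

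Glycolysis genes rose in part, with 10 of 24 higher (41.7%), none lower and a median of 0.2. The glucose transporter gene Slc2a1 had 34.2, 32.3, 29.4 and 26.4 CPM in the HFD libraries, against 15.5, 11.2, 10.1 and 12.4 CPM in the SD libraries. Every HFD value was higher than every SD value, with a difference of 1.31 ± 0.31 (adjusted p = 0.00209). Ldha, which makes lactate, had 490.02, 528, 528 and 493 CPM in the HFD libraries, against 389, 324, 317 and 329 CPM in the SD libraries; all HFD libraries were above all SD libraries (difference 0.59 ± 0.1, adjusted p = 5.28e-05). Pkm, the last enzyme of the pathway, rose by 0.82 ± 0.13, the mutase Pgam1 by 0.64 ± 0.12 and the aldolase Aldoa by 0.55 ± 0.1. Eno2, the enolase best known from neurons, rose most (2.65 ± 0.33) at low levels of 4.44 to 5.76 CPM in HFD libraries and 0.476 to 0.926 CPM in SD libraries. Oxidative phosphorylation showed less, with 4 of 64 genes higher and none lower, a share of 6.25% that is below the background of 14.2%, and a median of 0.07; with upper quartile factors 2 were higher and the median was -0.00325, and with library totals alone 7 were higher. The 4 were Atp5b of the ATP synthase (0.24 ± 0.065), Ndufa10 of complex I (0.29 ± 0.083), Sdhb of complex II (0.24 ± 0.073, lost with upper quartile factors, adjusted p = 0.0873) and Cyc1 of complex III (0.23 ± 0.08, lost without HFD replicate 1 or 2 or SD replicate 3 or 4 or with a minimum count of 50 or upper quartile factors, adjusted p = 0.0526 to 0.136).

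Proliferation genes rose. Of 44 cell cycle genes, 31 (70.5%) rose and 1 fell, with a median of 0.75. The count of higher genes was 21 without HFD replicate 1, the library with the highest sum, and 35 without SD replicate 2. They came from both parts of the cycle, with 15 of 20 genes of DNA replication and 16 of 24 genes of mitosis higher. The replication genes summed to 741 to 962 CPM in HFD libraries and 477 to 603 CPM in SD libraries. Sums of the mitosis genes overlapped, at 321 to 560 CPM in HFD libraries and 221 to 413 CPM in SD libraries. Tk1, a thymidine kinase of S phase, had 28.6, 24.8, 20.8 and 15.8 CPM in the HFD libraries, against 7.99, 10.7, 9.23 and 6.16 CPM in the SD libraries. There was no overlap, and the difference was 1.4 ± 0.22 (adjusted p = 1.70e-05). Cdt1, a licensing factor of replication, had 20.99, 21.4, 20.2 and 22.9 CPM in the HFD libraries, against 7.13, 10.8, 11.8 and 9.98 CPM in the SD libraries. Its lowest HFD library still lay above its highest SD library, with a difference of 1.1 ± 0.15 (adjusted p = 2.12e-06). The ribonucleotide reductase subunit Rrm2 (1.23 ± 0.24), the methylation adaptor Uhrf1 (1.18 ± 0.22), the spindle checkpoint kinase Bub1 (1.08 ± 0.23) and Hmmr (1.05 ± 0.25) rose likewise. Mki67, the antigen recognised by Ki-67 antibodies, stood at 26.3 to 42.6 CPM in HFD libraries and 18.1 to 35.2 CPM in SD libraries and missed the threshold (0.61 ± 0.3). Kif23, a motor of cell division, fell by 0.67 ± 0.14.

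Targets of NF-kB and inflammatory cytokines were mixed. Of 27, 8 rose and 1 fell, or 2 without HFD replicate 1 and 3 with these 8 libraries fitted alone (median 0.27). Il6 had 5.19, 6.54, 12.4 and 3.99 CPM in the HFD libraries, against 53.6, 39.7, 35.9 and 41.1 CPM in the SD libraries; its HFD libraries were all below its SD libraries (difference -2.61 ± 0.4, adjusted p = 1.16e-05). Il1rn, the natural antagonist of interleukin 1, had 159, 103, 96.3 and 132 CPM in the HFD libraries, against 84.4, 54.6, 43.5 and 39.6 CPM in the SD libraries. No HFD library was as low as any SD library, and the difference came to 1.14 ± 0.29 (adjusted p = 0.00329). Tnfaip2 rose by 1.96 ± 0.22, the A20-binding protein gene Tnip3 by 0.95 ± 0.25 and the caspase 8 regulator Cflar by 0.6 ± 0.12. The classical inflammatory genes Tnf (-0.0048 ± 0.24), Il1b (0.36 ± 0.31) and Nos2 (0.18 ± 0.78), named after their values were seen, missed the threshold.

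Of 25 chemokines, 3 rose and 4 fell, shares of 12% and 16% that are near the background, with a median of -0.095. The counts moved with the setting, to 7 lower with the replicate number as an additive term and to 5 higher with these 8 libraries fitted alone. Cxcl12, the ligand of CXCR4, had 39.6, 67.5, 51.1 and 52.2 CPM in the HFD libraries, against 198, 239, 215 and 295 CPM in the SD libraries, without overlap (difference -2.17 ± 0.28, adjusted p = 8.04e-07). Cxcl14 rose by 3.14 ± 0.41 at 7.99 to 14.2 CPM in HFD libraries and 0.417 to 2.58 CPM in SD libraries. The platelet factor gene Pf4 (-0.7 ± 0.2) and the monocyte attractant gene Ccl2 (-0.69 ± 0.2) fell. Ccl4 was called at 0.84 ± 0.28 and lost the call without HFD replicate 1 or SD replicate 2 or 3 (adjusted p = 0.0697 to 0.124). Among 15 receptors for chemokines and other attractants, 5 rose, including the C5a receptor gene C5ar1 (0.55 ± 0.13), and 2 fell, which were the monocyte receptor gene Ccr2 (-0.95 ± 0.19) and Ccr1 (-0.95 ± 0.24), with a median of 0.49. Ccr3, the eotaxin receptor, had 17.3, 7.86, 11.5 and 10.5 CPM in the HFD libraries, against 0.526, 0.648, 1.09 and 1.80 CPM in the SD libraries, a difference of 3.54 ± 0.47 (adjusted p = 1.29e-06); eosinophils express it, and the other eosinophil and basophil markers are given below.

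Immediate early genes, which respond within minutes to stimulation of cells and to tissue handling, were lower, with 17 of 30 (56.7%) lower, 1 higher and a median of -0.69. The factor gene Egr1 had 1799, 1581, 1653 and 2120.4 CPM in the HFD libraries, against 4957, 5037, 6732 and 6963 CPM in the SD libraries. Both groups were apart, with a log2 fold change of -1.73 ± 0.25 (adjusted p = 4.62e-06). Jun had 835, 692, 760.4 and 779 CPM in the HFD libraries, against 1948, 2206, 2396 and 2612 CPM in the SD libraries. HFD and SD libraries stood clear of each other, with a difference of -1.58 ± 0.2 (adjusted p = 5.52e-07). The related Fos (-1.12 ± 0.21) and Junb (-0.86 ± 0.17), Ier2 (-1.49 ± 0.19), Ier3 (-1.52 ± 0.19) and the heat shock genes Hspa1a (-1.4 ± 0.31) and Hspa1b (-1.49 ± 0.38) fell too; Hspa1a and Hspa1b are near-identical copies, so the split of their reads is uncertain. Dusp5, a phosphatase of ERK, was the one that rose (1.35 ± 0.16), joined by a second without HFD replicate 1 or HFD replicate 2. Of 19 genes of the unfolded protein and integrated stress responses, 6 fell and none rose (median -0.11). They included the chaperone Dnajb9 (-1.23 ± 0.16), the phosphatase subunit Ppp1r15a (-1.1 ± 0.17) and the factors Atf4 (-0.74 ± 0.12) and Ddit3 (-0.55 ± 0.16).

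Receptors and bridges for dying cells rose. Of 18 efferocytosis genes, 10 (55.6%) rose and 1 fell, with a median of 0.47. The integrin subunit Itgav had 257, 184, 173 and 261 CPM in the HFD libraries, against 41.4, 46.5, 48.1 and 51.5 CPM in the SD libraries. The groups did not overlap, and the log2 fold change was 2.22 ± 0.24 (adjusted p = 4.78e-08). Its partner Itgb5 had 632, 546, 642 and 527 CPM in the HFD libraries, against 171, 197, 145 and 168 CPM in the SD libraries. All HFD libraries lay above all SD libraries, a difference of 1.79 ± 0.16 (adjusted p = 2.81e-09). The receptor kinase gene Axl rose by 1.07 ± 0.13, the annexin gene Anxa1 by 1.28 ± 0.14 and Sirpa, the receptor for CD47, by 0.9 ± 0.13. Timd4, a phosphatidylserine receptor of resident macrophages, was the one that fell (-1.79 ± 0.41).

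Of 18 iron and haem genes, 5 rose, or 3 without SD replicate 2, and 5 fell (median -0.17). The transferrin receptor gene Tfrc, through which cells import iron, had 85.9, 64.97, 57.8 and 123 CPM in the HFD libraries, against 361, 403, 458 and 370.1 CPM in the SD libraries, without overlap (difference -2.26 ± 0.22, adjusted p = 1.19e-08). Slc11a2, which carries iron out of endosomes, rose by 0.66 ± 0.11, the biliverdin reductase gene Blvra by 0.62 ± 0.077 and the ferritin heavy chain gene Fth1 by 0.36 ± 0.099. The other biliverdin reductase, Blvrb, fell by 0.49 ± 0.13. Of 23 oxidase and antioxidant genes, 11 (47.8%) rose and none fell, with a median of 0.35. They were 9 of 17 antioxidant genes and 2 of 6 genes of the NADPH oxidase, which makes oxidants. Txnrd1, thioredoxin reductase, had 184, 179, 183 and 225 CPM in the HFD libraries, against 89.4, 86.1, 94.2 and 81.9 CPM in the SD libraries. Every HFD value was higher than every SD value, with a difference of 1.13 ± 0.15 (adjusted p = 7.82e-07). Srxn1 (1.29 ± 0.18), Gsr (0.99 ± 0.23), Prdx1 (0.89 ± 0.14) and Nfe2l2 (0.83 ± 0.2), the factor that controls several of them, rose as well. TGACNNNGC, the core letters of the element bound by that factor, was in 6 of the 14 antioxidant genes with a promoter window. It was in 14% of all genes with one. Of the 6, which include Nfe2l2 itself, 5 were higher, against 2 of the 8 without it. This split was not tested, and a match describes the letters only.

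Among 30 macrophage transcription factors, 9 rose and 6 fell, or 3 without SD replicate 3 (median 0.036). Irf4, needed for alternative activation and for some dendritic cells, had 20.5, 18.4, 13.1 and 27.1 CPM in the HFD libraries, against 59.5, 58.8, 77.7 and 100.3 CPM in the SD libraries. There was no overlap, and the difference was -1.9 ± 0.23 (adjusted p = 2.92e-07). The factors Cebpd (-1.18 ± 0.11) and Batf3 (-1.09 ± 0.13) fell, while Id2 rose by 1.08 ± 0.2 and Pparg, a nuclear receptor for lipids, by 0.94 ± 0.2. Of 21 growth factors, 4 rose and 4 fell (median 0.17). Gdf3 had 31.2, 20.99, 30.8 and 35.5 CPM in the HFD libraries, against 8.61, 5.14, 2.14 and 2.40 CPM in the SD libraries, a difference of 2.69 ± 0.44 (adjusted p = 3.14e-05), and Hgf rose by 1.04 ± 0.21. The EGF receptor ligand Hbegf had 10.9, 11.8, 8.79 and 12.9 CPM in the HFD libraries, against 38.9, 37.95, 39.8 and 56.5 CPM in the SD libraries. Its highest HFD library still lay below its lowest SD library, with a difference of -1.97 ± 0.21 (adjusted p = 3.63e-08). Of 17 complement genes, 6 rose and 4 fell (median -0.00061); C2 fell by 1.13 ± 0.27, and the calls of C3 (1.0 ± 0.35, lost without HFD replicate 3 or SD replicate 2, 3 or 4 or with these 8 libraries fitted alone, adjusted p = 0.0863 to 0.234) and Serping1 (1.01 ± 0.34, lost without HFD replicate 2 or 3 or SD replicate 2, 3 or 4 or with these 8 libraries fitted alone, adjusted p = 0.0515 to 0.0918) depended on the libraries included.

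Some of the largest changes lay outside these lists. Pcdh7, a protocadherin, had 93.1, 52.2, 47.2 and 66.1 CPM in the HFD libraries, against 1.34, 0.509, 0.714 and 1.25 CPM in the SD libraries. No HFD library was as low as any SD library, and the difference came to 6.09 ± 0.45 (adjusted p = 5.49e-11). Rnf128, a ubiquitin ligase, had 116, 115, 101 and 167 CPM in the HFD libraries, against 4.07, 4.12, 2.76 and 3.55 CPM in the SD libraries. Both groups were apart, with a log2 fold change of 5.1 ± 0.39 (adjusted p = 9.46e-11). Both were at a few CPM or less in every SD library. Il7r, the interleukin 7 receptor, rose by 4.24 ± 0.28, the RNA-binding protein gene Igf2bp2 by 4.66 ± 0.42 and the retinol dehydrogenase gene Dhrs9 by 4.63 ± 0.34. Myh15, Nrcam and Pcp4l1 (4.78 ± 0.57) rose with HFD replicate 1 the highest library in each. Their HFD levels were 16.97 to 46.3, 8.60 to 35.2 and 12.3 to 46.4 CPM, against 0.0463 to 0.239, 0 to 1.16 and 0.714 to 1.00 CPM on SD; with so few counts on SD no fold is given for Myh15 and Nrcam.

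In the other direction, Dnase1l3, a secreted nuclease of macrophages and dendritic cells, had 1.38, 1.97, 2.52 and 0.666 CPM in the HFD libraries, against 41.2, 39.1, 38.5 and 25.1 CPM in the SD libraries. HFD and SD libraries stood clear of each other, with a difference of -4.46 ± 0.36 (adjusted p = 2.39e-10). Pla2g2d, a secreted phospholipase, had 23.6, 18.7, 31.03 and 11.8 CPM in the HFD libraries, against 296, 231, 287 and 312 CPM in the SD libraries. The groups did not overlap, and the log2 fold change was -3.73 ± 0.34 (adjusted p = 2.81e-09). Rnase2a, a ribonuclease of the eosinophil family, was all but absent on HFD, at 0 to 0.320 CPM, against 67.97, 117, 43.9 and 7.37 CPM in the SD libraries, which differed widely among themselves. Mucl1 was likewise at 0 to 0.0914 CPM on HFD and 11.2 to 16.1 CPM on SD; with so few counts on HFD no fold is given for these 2. Siglech, a lectin of plasmacytoid dendritic cells (-3.28 ± 0.42), the lymphocyte adhesion receptor gene Cd226 (-3.22 ± 0.32) and Aff3 (-3.64 ± 0.43) fell. Cyp2e1 fell by 3.98 ± 0.58, at 0.346 to 0.960 CPM in HFD libraries and 4.24 to 19.1 CPM in SD libraries, and is also expressed by adipocytes.

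Markers of other cells moved with the diet in several lists. Of 15 adipocyte markers tested, 13 fell and none rose (median -2.01). The carbonic anhydrase gene Car3 had 17.9, 23.3, 14.9 and 8.75 CPM in the HFD libraries, against 149, 160.3, 116 and 147 CPM in the SD libraries, a difference of -3.14 ± 0.37 (adjusted p = 2.31e-07), and Cfd (adipsin) had 0.143 to 0.692 CPM in HFD libraries and 8.93 to 22.9 CPM in SD libraries. Lep (-1.2 ± 0.55) and Aqp7 (-0.67 ± 0.39) missed the threshold, though Aqp7 passed it without HFD replicate 2 (adjusted p = 0.0439). Of 8 mast cell markers, 6 rose (median 3.43); their sum was 26.9 to 131 CPM in HFD libraries and 7.7 to 16.6 CPM in SD libraries. The tryptase gene Tpsb2 had 24.2, 7.96, 48.96 and 45.02 CPM in the HFD libraries, against 0.765, 1.80, 2.33 and 3.82 CPM in the SD libraries, with HFD replicate 2 lowest among HFD libraries (difference 3.86 ± 0.98, adjusted p = 0.00377), while Kit (1.04 ± 0.57) and Gata2 (-0.47 ± 0.34), which other cells share, missed the threshold. Of 5 eosinophil and basophil markers tested, 2 rose, or 1 without SD replicate 2 (median 1.13). Their list summed to 9.88 to 19 CPM in HFD libraries and 1.48 to 3.33 CPM in SD libraries, with Ear6 at 0 in all 8. The list includes Ccr3, described above, which made up most of its sum in each HFD library.

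Of 19 stromal markers (median 1.0), 10 rose and 1 fell, the peptidase gene Dpp4 (-1.29 ± 0.45, lost without HFD replicate 1 or 3 or SD replicate 1 or 3 or with these 8 libraries fitted alone, adjusted p = 0.0606 to 0.246). Lum (lumican) had 30.2, 75.3, 73.3 and 67.9 CPM in the HFD libraries, against 15.02, 13.3, 9.76 and 5.29 CPM in the SD libraries. All HFD libraries lay above all SD libraries, a difference of 2.5 ± 0.41 (adjusted p = 3.39e-05). Col1a2, a chain of collagen I, had 64.5, 291, 201 and 126 CPM in the HFD libraries, against 88.6, 53.1, 48.98 and 27.9 CPM in the SD libraries. HFD replicate 1 lay among its SD libraries (difference 1.64 ± 0.4, adjusted p = 0.00233). The collagen gene Col3a1 (1.45 ± 0.47) lost its call without HFD replicate 2 or SD replicate 3 or 4 (adjusted p = 0.0605 to 0.0987). Of 18 dendritic cell markers (median -1.06), 9 fell, among them Cd24a (-1.91 ± 0.37), and none rose, or 1 without HFD replicate 4. Of the 14 endothelial markers (median -0.65) 1 was lower (Egfl7, -0.94 ± 0.27, lost without HFD replicate 1, adjusted p = 0.0557) and of 9 mesothelial markers (median -1.51) none was called in edgeR (2 at an unadjusted p under 0.05 and 0 by DESeq2), but without HFD replicate 2, the library with the highest sums of both lists on HFD, 8 endothelial and 7 mesothelial markers were lower; without SD replicate 2 the endothelial count was 2, and without SD replicate 4 the mesothelial count was 1. Of 9 mural markers (median -1.24) 3 were called lower with all libraries, 6 without HFD replicate 2, 0 without HFD replicate 1, 3 or 4 and 1 without SD replicate 1, 2 or 3. Of 11 T cell markers, 2 fell, namely Cd2 (-2.86 ± 0.39) and Cd4 (-0.86 ± 0.24), and 1, Cd8b1, was called higher (2.53 ± 0.86, lost without HFD replicate 1 or SD replicate 1, 3 or 4, adjusted p = 0.0619 to 0.111). Their median of 0.54 was above 0, while their sum was lower, at 16.3 to 28.3 CPM in HFD libraries and 32 to 51.6 CPM in SD libraries. Natural killer and innate lymphoid markers summed to 72.6 to 84.5 CPM in HFD libraries and 108 to 138 CPM in SD libraries, with 3 of 11 lower and a median of -0.14, among them the activating receptor gene Klrk1 (-2.16 ± 0.3). Monocyte markers summed to 2190 to 2640 CPM in HFD libraries and 3130 to 4120 CPM in SD libraries; 4 of 18 fell, or 2 without HFD replicate 1, among them Ifitm6 (-2.05 ± 0.32), and the formyl peptide receptor gene Fpr1 rose (2.18 ± 0.63), and the median over the list was 0.13. Of 6 neutrophil markers tested, none was called in edgeR (1 at an unadjusted p under 0.05 and 0 by DESeq2, 1 lower without SD replicate 1, median 0.34, Elane at 0). Of 9 B or plasma cell markers tested, none was called either (2 at an unadjusted p under 0.05 and 0 by DESeq2, median 1.17). Jchain, the joining chain of antibodies, was called higher with these 8 libraries fitted alone (adjusted p = 0.0208) and with a replicate block in them (adjusted p = 0.0492). Of 4 markers of red cells or platelets tested, none was called (1 at an unadjusted p under 0.05 and 1 by DESeq2, 1 lower without SD replicate 2, median -0.42, with Hba-a1, Hba-a2 and Hbb-bt at 0). The part of these cells in the results was not tested.

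**Figure D4:**
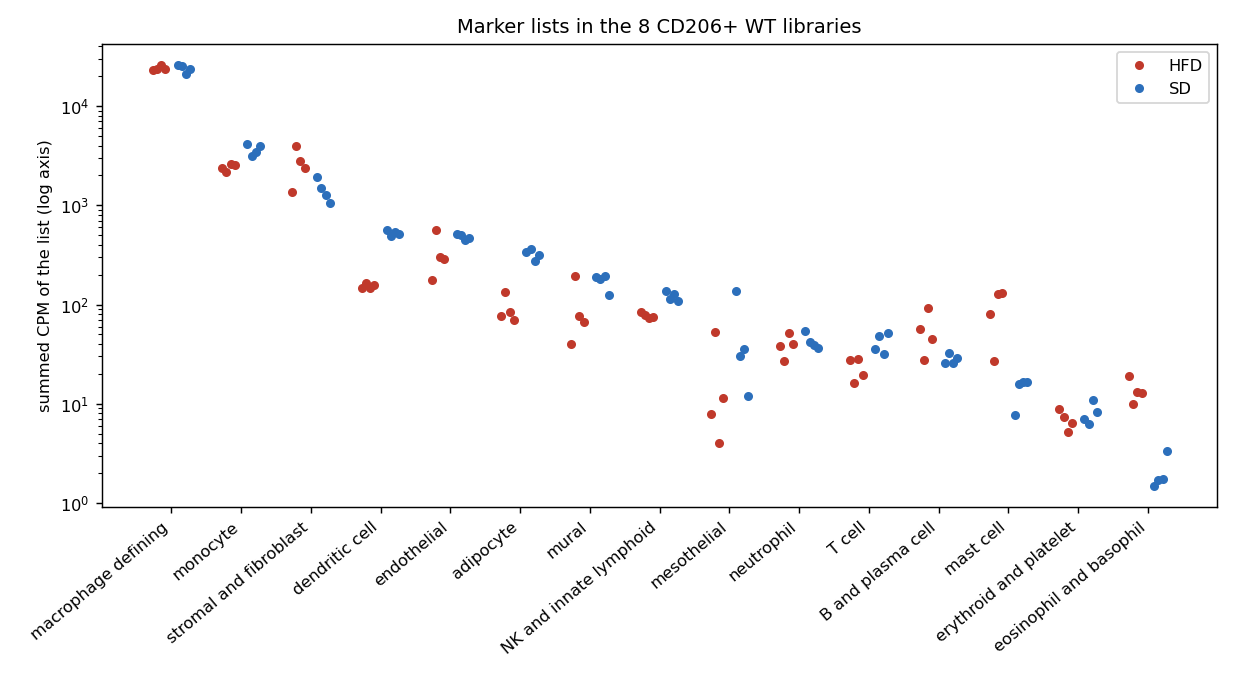
Summed CPM (log axis) of each of the 15 marker lists in the 4 HFD libraries (red) and the 4 SD libraries (blue) of CD206+ WT macrophages, ordered by level. Adipocyte and dendritic cell sums were lower in all HFD libraries than in any SD library, mast cell sums were higher in all of them, and the macrophage sums overlapped. The dendritic cell sum includes Cd209a, which made up most of its difference.

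Whether these diet effects differed from those of CD11c+ macrophages of WT mice was tested as the difference of the 2 diet effects (CD206+ minus CD11c+). It passed for 4363 genes (32.4%), with 2156 higher and 2207 lower in this difference; with upper quartile factors the split was 1795 and 2509, and with library totals alone 1550 and 2670. In the CD11c+ cells the diet effect called 6234 genes (46.3%). The lipid-associated genes had a median of 1.23 in CD206+ and 1.54 in CD11c+ cells, and 18 of 30 passed the test of the difference. The log2 fold change of Gpnmb was larger in CD206+ cells, at 7.05 ± 0.68 against 4.37 ± 0.58, a difference of 2.67 ± 0.77 (adjusted p = 0.00827). Its CD11c+ levels were higher on both diets, at 1777.9 to 3100.5 CPM on HFD and 47.9 to 162 CPM on SD. That of Lpl was larger too, with 2.23 ± 0.24 against 1.12 ± 0.24 and a difference of 1.11 ± 0.33 (adjusted p = 0.0111). Its CD11c+ levels were likewise higher, at 5725.5 to 7401 CPM on HFD and 2399 to 3693 CPM on SD. Both larger ratios thus started from lower SD levels in CD206+ cells. Ctsb rose less in CD206+ cells, by 0.5 ± 0.11 against 2.03 ± 0.11 (difference -1.52 ± 0.15, adjusted p = 3.09e-08). Of the 39 resident genes, 20 passed, and of the 58 lysosomal genes 28.

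Among energy genes, 46 of 64 oxidative phosphorylation genes and 18 of 24 glycolysis genes passed that test. The medians were 0.07 in CD206+ and -0.41 in CD11c+ cells for oxidative phosphorylation, and 0.2 in CD206+ and -0.2 in CD11c+ cells for glycolysis. Atp5b had diet effects of 0.24 ± 0.065 in CD206+ and -0.29 ± 0.065 in CD11c+ cells, a difference of 0.54 ± 0.092 (adjusted p = 5.33e-05). Ldha had 0.59 ± 0.1 in CD206+ and -0.24 ± 0.099 in CD11c+ cells, a difference of 0.83 ± 0.14 (adjusted p = 4.83e-05). Among the genes that fell in CD206+ cells, Tfrc had -2.26 ± 0.22 in CD206+ and 0.81 ± 0.22 in CD11c+ cells, a difference of -3.08 ± 0.31 (adjusted p = 3.15e-08), and Cxcl12 had -2.17 ± 0.28 in CD206+ and 0.26 ± 0.28 in CD11c+ cells, a difference of -2.43 ± 0.39 (adjusted p = 2.56e-05). The diet effect of Mmp9 was -4.18 ± 0.4 in CD206+ and -1.74 ± 0.4 in CD11c+ cells, a difference of -2.45 ± 0.54 (adjusted p = 9.24e-04). Ahcyl2, a regulator of ion transport, had the smallest p among genes higher in this difference (1.88 ± 0.14, adjusted p = 1.81e-10). Retnla, with -3.82 ± 0.46 in CD206+ and -4.06 ± 0.46 in CD11c+ cells, had a difference of 0.24 ± 0.58 (adjusted p = 0.788) that missed the threshold.

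Whether the diet effect depended on A20 was tested as the difference between the diet effects of WT and KO CD206+ cells, which passed for 1595 genes (11.9%), 892 higher (6.63%) and 703 lower (5.23%); with upper quartile factors the split was 633 and 950. In the KO cells alone, 0 of 13453 genes (0%) were called by edgeR, with 831 genes at an unadjusted p under 0.05 and 18 called by DESeq2; without SD KO replicate 1, edgeR called 7. The WT SD libraries, which stood apart from all other libraries on the third component above, enter the WT diet effects and both tests of a difference; a shift of these libraries for a reason other than diet and a diet effect limited to WT cells cannot be told apart. The test of the difference passed for 18 of the 30 lipid-associated genes, 20 of 58 lysosomal genes and 18 of 39 resident genes. Gpnmb had 8.35 to 63.5 CPM in KO libraries on HFD and 3.43 to 16.2 CPM in KO libraries on SD, and the WT minus KO difference of diet effects was 5.74 ± 0.83 (adjusted p = 2.29e-05). Spp1 differed by 5.62 ± 0.79 (adjusted p = 1.77e-05), Ctsk by 4.75 ± 0.79 (adjusted p = 1.42e-04) and Lpl by 2.69 ± 0.34 (adjusted p = 3.77e-06) on the log2 scale.

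Some genes that fell in WT cells were low in KO cells on both diets. Cd209a had 5.46 to 22.9 CPM in KO cells on HFD and 3.49 to 17.8 CPM on SD, levels near those of WT cells on HFD, and a difference of diet effects of -4.34 ± 0.71 (adjusted p = 1.21e-04). Retnla had 1036 to 3471 CPM in KO cells on HFD and 829.7 to 2778 CPM in KO cells on SD, a difference of -4.03 ± 0.6 (adjusted p = 3.71e-05). Mmp9, by contrast, was not low in KO cells, with 370.01 to 997 CPM on HFD and 551 to 1099.6 CPM on SD. These levels were above all WT HFD libraries and within or above the 261 to 671 CPM of the WT SD libraries. Its difference of diet effects was -3.9 ± 0.52 (adjusted p = 8.37e-06). Tlr13, a sensor of bacterial ribosomal RNA, had 247, 245, 263 and 279 CPM in the HFD libraries, against 50.4, 46.5, 50.2 and 48.2 CPM in the SD libraries of WT cells. It had the smallest p among genes higher in this difference (2.27 ± 0.23, adjusted p = 3.13e-07), and in KO cells it stood at 104 to 132 CPM on HFD and 91.5 to 139 CPM on SD. Trappc5, of a vesicle tethering complex, had 21.1 to 22.7 CPM in HFD libraries and 46.3 to 60.8 CPM in SD libraries of WT cells and the smallest p among genes lower in this difference (-1.33 ± 0.14, adjusted p = 3.13e-07). Of the other lists, 3 of 45 interferon genes passed, a lower share than the 11.9% of all genes tested. The list's median was -0.34 in WT and -0.42 in KO cells.

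**Figure D5:**
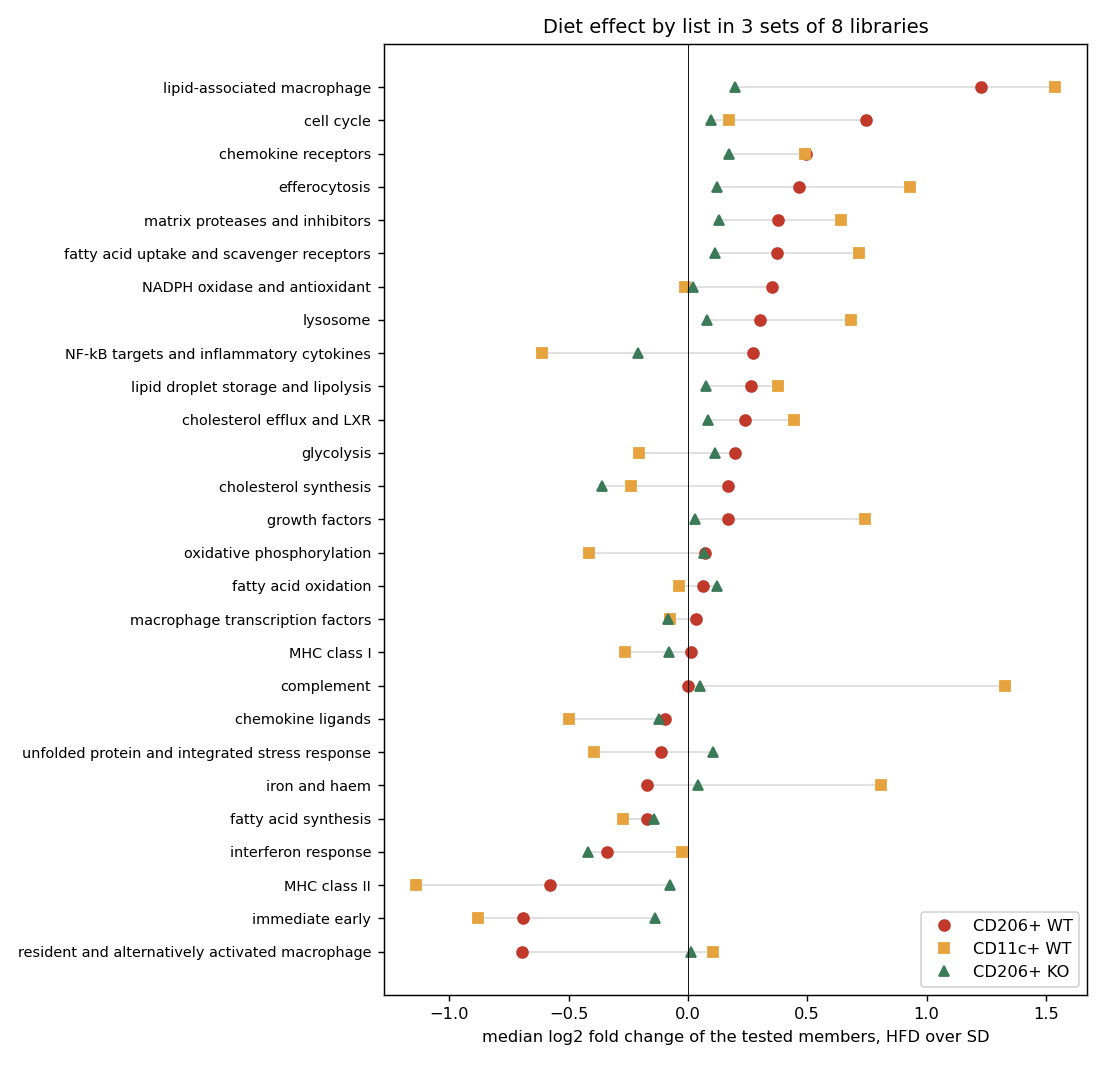
Median log2 fold change of HFD over SD over the tested members of each pathway list in CD206+ WT (red circles), CD11c+ WT (orange squares) and CD206+ KO macrophages (green triangles), with lists ordered by the CD206+ WT value. For the lipid-associated list the medians were 1.23, 1.54 and 0.2, and for the resident list -0.7, 0.11 and 0.014.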

How the data were processed

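RNA-seq libraries of sorted fat macrophages, 4 in each of 8 groups, were analysed from the read counts per gene that the authors deposited, 1 table per library. FastQC 0.11.4, Trimmomatic 0.35, TopHat2 2.1.0, SAMtools 0.1.18 and the mouse build mm10 (GRCm38) are named, without roles, in the submitters' processing notes; the counter, the gene annotation and the strand setting were not given in the sources used here, so overlapping and antisense genes may share reads. The 5 entries per table that name no gene were left out; in the 8 CD206+ WT libraries reads outside genes were 7.42 to 11.1% and reads matching more than 1 gene 0.992 to 1.15% of all counted reads. No libraries agreed within sampling noise (chi-square per degree of freedom 15.7 or more between replicates).

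Counts of all 32 libraries were fitted with edgeR 4.0.16 (limma 3.58.1, R 4.3.3) by its quasi-likelihood test, with 8 group means, TMM factors and a minimum count of 10 in filterByExpr, which kept 13453 of 24421 genes; the script was checked on simulated data. An adjusted p (Benjamini-Hochberg over all genes) under 0.05 was called, and the standard error is the fold change over the root of its F value. The 2 interaction contrasts used the same fit. DESeq2 1.42.0, other scalings, filters, library subsets and replicate blocks were alternatives. In WT mice, CD206+ and CD11c+ libraries of one replicate number deviated together from their group means (r = 0.468, 0.425, 0.228 and 0.268 on HFD and 0.162, 0.217, 0.143 and 0.285 on SD). The number thus appeared to pair the sorts. No label states such a pairing, and what libraries of one number share was not tested.

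The comparison, the gene lists and the rule for named genes were chosen with earlier results of these data known. The rule took the sort, lineage and target genes, the 15 largest called fold changes each way (10 CPM or more, no overlap), the 10 largest CPM differences each way, up to 6 called members of each list, and the 8 smallest interaction p each way; 235 called genes with clone-type names were counted only, and a few genes taken by the rule are not reported here. Named outside the rule, after their values were seen, were Apoe, Aqp7, Arg1, Atp6v0d1, Atp6v1a, Cd209f, Cd36, Cd9, Chil3, Ctsa, Ctsc, Ctsh, Ctss, Fabp4, Gata2, Gla, H2-Oa, Il1b, Kif23, Kit, Lep, Lipe, Lyve1, Mcoln1, Mgl2, Mki67, Mmp13, Nos2, Olr1, Tnf, Trem2 and Trim25. Promoters of 250 bases before to 50 after the start came from RefSeq (GRCm38.p6) and were matched by symbol.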

Additional observations from a re-analysis of the deposited data

Results flagged for a closer look

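Of 134 sets of 4 libraries examined (52 genes and 15 marker sums, on each diet), 13 had 1 library set apart from the other 3 by a gap of more than 0.83 of the set's range, where chance alone sets apart about 1 in 20. Most were SD libraries. SD replicate 4 was high for Mmp9 (671 CPM) and Hbegf (56.5 CPM), low for Dnase1l3 (25.1 CPM), low in the mural marker sum (125 CPM) and high in the eosinophil and basophil sum (3.33 CPM). SD replicate 1 was high for Adam8 (54.3 CPM) and Ldha (389 CPM) and low in the mast cell sum (7.70 CPM). SD replicate 2 was high for Gbp7 (86.2 CPM). Among HFD libraries, replicate 1 was low for Lum (30.2 CPM), replicate 4 was high for Txnrd1 (225 CPM), and replicate 2 was high for Rnase2a (0.320 CPM, at the level of single reads) and in the mesothelial sum (53.2 CPM). None of these libraries crossed into the range of the other diet for the genes named.

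The diet effect differed between the sorts, as CD206+ minus CD11c+ WT cells, for Ahcyl2 (1.88), Atp5b (0.54), Ctsb (-1.52), Cxcl12 (-2.43), Gpnmb (2.67), Ldha (0.83), Lpl (1.11), Mmp9 (-2.45) and Tfrc (-3.08), with adjusted p between 1.81e-10 and 0.0111. It differed between genotypes, as WT minus KO CD206+ cells, for Cd209a (-4.34), Ctsk (4.75), Gpnmb (5.74), Lpl (2.69), Mmp9 (-3.90), Retnla (-4.03), Spp1 (5.62), Tlr13 (2.27) and Trappc5 (-1.33), with adjusted p between 3.13e-07 and 1.42e-04. The effects behind each difference are given above.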

How the results depend on the processing

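The number of genes called for diet (3728) stayed between 3350 and 4024 over 10 other settings, and between 3038 (without HFD replicate 1) and 3553 (without HFD replicate 2) when 1 library was left out. The difference between the sorts (4363 genes) ranged over 3907 to 4417 without single libraries, and reached 5210 with the replicate block that pairs the CD206+ and CD11c+ libraries; library totals alone moved its median over all genes to -0.14, against -0.033. The difference between genotypes (1595 genes) ranged over 1225 to 1709 without single libraries. None of these counts moved by more than 1.5 times in any setting run. The 10 named differences between the sorts and the 9 between genotypes had the same outcome in every setting that includes them, the paired block among these. For Retnla between the sorts, that outcome was a missed threshold. Several of these genes were named for a small interaction p or a large change in these same data, so their stability is not independent support. Of 246 named genes past the threshold in the diet effect, 206 kept direction and call in each of the 18 settings that tested them. A gene that a filter or a library subset left untested in a setting was not scored there. No called gene turned its direction in any setting that tested it.

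HFD and SD libraries of one number did not deviate together (r between -0.209 and 0.0545), nor did WT and KO libraries (r between -0.132 and 0.0853), so no pairing by number was seen for either. A replicate block gave 3350 diet calls in the 8 libraries alone and 3927 in all 32, and 1808 calls for the difference between genotypes. In the block of 8 libraries, 13 named genes lost their call, among them Lipe (adjusted p = 0.0518), and Mki67 (adjusted p = 0.0291), Lep (adjusted p = 0.00912) and Jchain (adjusted p = 0.0492) gained one. Apoe gained a call with DESeq2 (adjusted p = 0.0398), library totals (0.0492), the 16 CD206+ libraries (0.0244) and the 8 libraries alone (0.0249).

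The 8 CD206+ WT libraries, on HFD and on SD, serve all 3 comparisons, so the diet effect and both interactions share them. Genes at a few CPM rest on few reads. The libraries' origin from single or pooled mice is not given, and cell composition was not measured.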

Other observations

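Further genes with large differences belong to no list above, or were left out of its account. The inhibitory lectin Cd22, best known from B cells, had 19.3, 11.4, 18.4 and 15.8 CPM in the HFD libraries, against 2.20, 3.80, 1.000 and 2.18 CPM in the SD libraries; the groups were apart (2.82 ± 0.24, adjusted p = 8.40e-10), while the summed B and plasma cell markers, which do not include it, overlapped between 27.5 to 92.5 CPM in HFD libraries and 25.4 to 32.2 CPM in SD libraries. Treml4, a receptor that binds dead cells, rose by 2.6 ± 0.48, at 2.47 to 6.27 CPM in HFD libraries and 0.383 to 0.982 CPM in SD libraries. The platelet-derived growth factor gene Pdgfb rose by 0.9 ± 0.25.

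Cd1d1, which presents lipids to natural killer T cells, had 3.55, 5.90, 4.00 and 4.28 CPM in the HFD libraries, against 18.8, 18.98, 16.5 and 16.1 CPM in the SD libraries; every HFD library lay below every SD library (-1.99 ± 0.23, adjusted p = 1.64e-07). Tgfbi, a secreted matrix protein induced by TGF-beta, had 519, 469, 532 and 504 CPM in the HFD libraries, against 889, 875, 1021 and 1118 CPM in the SD libraries (-0.95 ± 0.15, adjusted p = 1.65e-05). The tetraspanin Tspan32 (-1.93 ± 0.16), the reticulon Rtn1 (-2.54 ± 0.19) and the EGF receptor ligand Areg (-1.68 ± 0.36) fell as well. Among mast cell genes, the carboxypeptidase Cpa3 (3.51 ± 0.93) and the chymases Cma1 (3.45 ± 0.98) and Mcpt4 (3.42 ± 0.95) rose, with HFD replicate 2 the lowest HFD library for all 3.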
